A study of Mus musculus with 15 samples.

Results

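Histone genes were followed in monolayers of mouse duodenal organoid cells that had met an undigested protein source or medium alone for 6 h. Genes were taken as histone genes by their symbol, from the H1f, H2a, H2b, H3 and H4 series to Macroh2a, on probe sets (groups of array probes read as 1 value) that the annotation ties to 1 gene symbol. The probe set with the highest mean stood for each gene. This gave 43 histone genes among the 18820 genes with a single symbol. Of these 43, 31 were replication-dependent genes, called cluster genes here, and 12 were variant genes. The cells came from the duodenum of female C57BL/6J mice aged 9 weeks and no label names a genetic change. They were exposed to casein (CAS), soybean meal (SBM), spray dried plasma protein (SDPP) or yellow meal worm (YMW), each at 4% (w/v) by the labels, or to DMEM as the medium control (MC). Each of the 5 groups had 3 arrays, and each array held the RNA of 3 pooled culture wells. The organoids came from 3 mice, and no label ties an array to a mouse, so the p-values below measure the spread between cultures, which may not be a spread between animals. All values are RMA-normalised intensities taken to log2, and the number of arrays limits their precision.

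Histones are the proteins around which DNA is wound. H2A, H2B, H3 and H4 form the core of the nucleosome, and H1, the linker histone, binds where DNA enters and leaves it. The replication-dependent genes lie in clusters, mostly without introns, and their mRNAs end in a stem-loop in place of a poly(A) tail. These mRNAs accumulate in S phase, when new DNA must be packaged, and decay when replication stops. Variant genes are read throughout the cell cycle into polyadenylated mRNAs, and their products replace the canonical histones at particular places, such as H2A.Z at promoters, H2A.X at DNA breaks, H3.3 at transcribed genes and macroH2A in repressed chromatin. In the duodenum, dividing cells lie in the crypts, and the cells of the villi have left the cycle. RNA was labelled by a whole-transcript assay. In bulk samples of this kind, fewer cells in S phase and less histone mRNA per such cell cannot be told apart.

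Of the 31 cluster genes, 24 lay on chromosome 13, 5 on chromosome 3, 1 on chromosome 11 and 1 on chromosome 6. By protein family there were 5 H1, 6 H2A, 10 H2B, 3 H3 and 7 H4 genes. The 95th percentile of the olfactory and vomeronasal receptor genes, log2 3.91, was taken as the background, and 26 cluster and 10 variant genes had a mean above it. H1f6, H2ac6, H2ac8, H2bc21, H3c7, H1f8 and Macroh2a3 did not. H2bu1-ps and Macroh2a3 are annotated as transcribed pseudogenes, and H1f6, H1f7, H1f8, H2ac1 and H2bc1 are known from germ cells. Copies of the cluster genes are nearly identical in their coding parts, and a further 40 probe sets were tied to several histone genes at once. These covered 51 genes, of which 35 had no other probe set, and they are described apart.

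Promoter sequences just before the annotated start are shown for the cluster genes that passed after CAS, SBM and SDPP alike, for H4c8, whose MC arrays lay below all treated arrays, and for H2az1, a variant gene, as a contrast. They come from RefSeq (GRCm38.p6), which held a window of 250 bases before to 50 after the start for 36 of the 43 genes and none for H2ax, H2bc4, H2bc21, H2bu1-ps, H3c7, H4c14 and Macroh2a3. The 150 bases before the start are written 5′ to 3′ on the strand of the gene. Capitals mark 3 motifs, each searched on both strands. The CCAAT box was searched as CCAAT. The TATA box was searched by the letters TATAAA, and the octamer, which binds POU-domain factors and is known from H2B promoters, by ATTTGCAT.
H4c6, chr13:23551669-23551818, minus strand: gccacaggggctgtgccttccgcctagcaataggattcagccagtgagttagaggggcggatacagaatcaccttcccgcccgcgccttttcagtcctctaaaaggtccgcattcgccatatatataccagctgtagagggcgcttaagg
H4c8, chr13:23530894-23531043, plus strand: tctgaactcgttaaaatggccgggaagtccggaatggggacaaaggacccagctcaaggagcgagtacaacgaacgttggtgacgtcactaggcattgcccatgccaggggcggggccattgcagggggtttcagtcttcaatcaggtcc
H4f16, chr6:136804432-136804581, minus strand: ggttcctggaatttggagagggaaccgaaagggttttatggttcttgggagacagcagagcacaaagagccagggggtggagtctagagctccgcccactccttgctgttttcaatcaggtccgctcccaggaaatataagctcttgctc
H2bc3, chr13:23746584-23746733, plus strand: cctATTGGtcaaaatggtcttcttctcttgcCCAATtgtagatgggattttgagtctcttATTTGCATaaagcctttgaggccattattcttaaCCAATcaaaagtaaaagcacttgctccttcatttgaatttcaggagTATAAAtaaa
H2ac4, chr13:23750938-23751087, plus strand: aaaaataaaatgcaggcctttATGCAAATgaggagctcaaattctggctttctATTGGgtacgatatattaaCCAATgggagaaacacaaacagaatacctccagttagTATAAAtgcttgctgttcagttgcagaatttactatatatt
H1f5, chr13:21780626-21780775, minus strand: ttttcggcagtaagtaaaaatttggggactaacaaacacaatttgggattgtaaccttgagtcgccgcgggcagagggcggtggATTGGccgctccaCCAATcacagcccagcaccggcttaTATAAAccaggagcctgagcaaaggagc
H2az1, chr3:137864337-137864486, plus strand: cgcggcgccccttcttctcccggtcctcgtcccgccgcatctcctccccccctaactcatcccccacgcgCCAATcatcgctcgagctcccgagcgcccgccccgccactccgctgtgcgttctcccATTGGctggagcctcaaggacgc

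Over the whole windows and both strands, the octamer was found in 5 of the 7 H2B and 4 of the 6 H2A cluster promoters, in 0 of the H1, H3 and H4 cluster promoters and in 1 of 10 variant promoters, against 1.74% of all 32851 promoters in the table. A CCAAT box was found in 22 of 26 cluster promoters (84.6%) and in 7 of 10 variant promoters (70%), against 37.4% of all promoters. Among the cluster genes it was absent from the windows of 4 of the 6 H4 genes, H4c6 and H4c8 among them. The letters TATAAA were found in 17 of 26 cluster promoters (65.4%) and in 1 of 10 variant promoters (10%), against 13.6% of all promoters. Matches at any place were counted, such as those of H4c6 and H4c9, 250 and 137 bases before the start. No motif overlapped another kind of motif in these windows. H2A and H2B genes often stand back to back, and the windows of 6 of the 36 genes overlapped that of a neighbour on the other strand by 220 to 279 bases, so those genes share motifs. A match gives letters in a window and not a bound site.

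The control arrays differed among themselves, which bears on every comparison with the MC. The mean of a list of 14 mature enterocyte genes was 8.47, 10.41 and 10.43 on MC replicates 1, 2 and 3, and 8.23 to 9.95 on the 12 treated arrays. The mean of 16 G2 and mitosis genes was 8.93, 7.97 and 7.53 on the MC arrays and 8.59 to 8.93 on the treated arrays. MC replicate 1 therefore lay with the treated arrays, and MC replicates 2 and 3 lay apart, with more enterocyte and less mitotic mRNA. Of the 26 cluster histone genes above background, MC replicate 1 fell inside the range of the treated arrays for 24 and below it for 2. MC replicate 2 lay below all treated arrays for 13 of the 26 and MC replicate 3 for 22. The part of cell composition in the differences from the MC was not tested. Epithelial markers averaged 11.2 to 11.5 on all arrays, and all 6 were measured, while lists of fibroblast and leukocyte markers averaged 4.39 to 4.62 and 4.05 to 4.28, near the background. Single members lay on both sides of it, with means from 2.925 (Dcn) to 5.26 (Vim) and from 2.87 (Cd79a) to 6.39 (Lyz2). The list of 10 crypt base stem cell genes averaged 8.43, 7.67 and 7.17 on the MC arrays and 8.13 to 8.59 on the treated arrays. Paneth cell markers averaged 9.57 to 10.12 on the MC and 9.87 to 10.14 on the treated arrays, goblet cell markers 9.98 to 10.39 and 9.85 to 10.09, and enteroendocrine markers 7.24 to 7.37 and 7.18 to 7.79.

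Compared with the MC, 9, 7 and 8 of the 31 cluster histone genes were higher after CAS, SBM and SDPP, 0 were higher after YMW, and no variant gene passed the threshold. The threshold was that of the study's methods, an unadjusted p below 0.05 in limma with a fold change of at least 1.5. After CAS, 9 of the 43 histone genes rose (H1f5, H2ac4, H2bc3, H2bc14, H4c3, H4c6, H4c8, H4c14 and H4f16) and 0 fell, where 1.82% of all genes passed as higher and 2.04% as lower. After SBM, 7 rose (H1f1, H1f5, H2ac4, H2bc3, H2bc14, H4c6 and H4f16) and 0 fell, against 1.37% and 2.14% of all genes. After SDPP, 8 rose (H1f1, H1f3, H1f5, H2ac4, H2bc3, H2bc8, H4c6 and H4f16) and 0 fell, against 1.13% and 0.499%. After YMW, 0 rose and 1 fell (H2bc4), against 1.74% and 2.13%. H1f5, H2ac4, H2bc3, H4c6 and H4f16 passed with each of CAS, SBM and SDPP, comparisons that share the MC arrays. They also passed as higher, and 0 genes as lower, in the mean of the 4 sources against the MC, where 1.45% and 1.9% of all genes did.

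The median log2 difference of the 31 cluster genes was 0.40 after CAS, 0.36 after SBM, 0.39 after SDPP and 0.18 after YMW. That of the 12 variant genes was 0.10, 0.15, 0.05 and 0.09, and that of all genes lay between -0.01 and 0.02. Adjusted over all genes by Benjamini-Hochberg, only H4c6 and H4c8 after CAS (limma, adjusted p = 0.0435 for both) and H4c6, H4c8 and H4f16 in the mean of the sources were below 0.05, where 0.654% and 1.52% of all genes were. After SBM, SDPP and YMW 0 of the 43 genes had an adjusted p below 0.05 in limma, where 0.00531%, 0% and 0.00531% of all genes did. At an unadjusted p below 0.05 there were 23 after CAS, 17 after SBM, 22 after SDPP, 12 after YMW and 24 in the mean, where 16.5%, 18.2%, 12%, 19% and 23% of all genes passed. The counts past the study's threshold leaned on single arrays, and the counts over all genes moved too. Without MC replicate 1 they were 17 after CAS, 13 after SBM, 15 after SDPP and 7 after YMW, and 13 in the mean of the sources, where 9.08%, 9.4%, 7.33%, 9.53% and 8.68% of all genes passed in either direction. Without MC replicate 3 they were 3, 0, 1, 0 and 0, against 1.26%, 0.723%, 0.452%, 1.13% and 0.739% of all genes. Without CAS replicate 1 the count after CAS was 4 (2.51% of all genes), and without SBM replicate 3 that after SBM was 4 (4.59%). Without SDPP replicate 3 the count after SDPP was 1 (0.776%) and that in the mean 3 (2.96%). Without MC replicate 2 the count in the mean was also 3 (1.46%). The count after YMW was 2 without YMW replicate 1 (4.86%) or 3 (2.72%), and 0 without MC replicate 2 (1.76%) or YMW replicate 2 (2.93%).

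**Figure D1:**
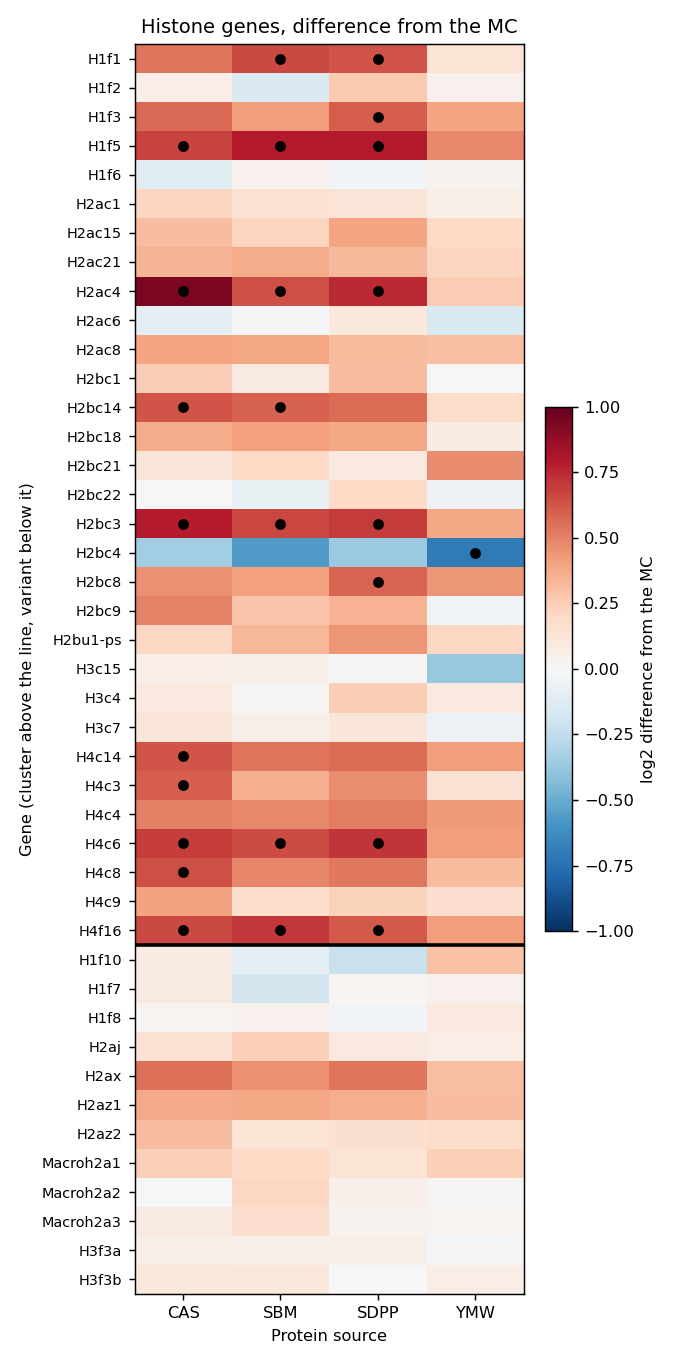
Log2 difference of each of the 43 histone genes (rows) from the MC after each protein source (columns), as a colour from -1 to 1, with a black dot where the gene passed the study's threshold. Dots appear in the cluster rows alone, 9 after CAS, 7 after SBM, 8 after SDPP and 1, on a fall of H2bc4, after YMW.

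Among the H4 genes, which code for the histone that pairs with H3 in the nucleosome core, H4c6 and H4c8 gave the clearest separation. H4c6 read 9.38, 9.45 and 9.04 on the MC arrays, 10.20, 9.95 and 9.79 after CAS, 10.05, 9.88 and 9.89 after SBM, 9.90, 9.82 and 10.30 after SDPP, and 9.70, 9.62 and 9.79 after YMW. Every treated array was above every MC array, MC replicate 1 included. The log2 difference of H4c6 was 0.69 after CAS, 0.65 after SBM and 0.71 after SDPP (SE 0.14, n = 3 per group), and its mean over the 4 sources was 0.62 above the MC (SE 0.11, limma adjusted p = 0.0310). From MC replicate 1 alone, H4c6 differed by 0.60 after CAS, 0.56 after SBM and 0.63 after SDPP, given as values, since 1 control array has no spread of its own.

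H4c8 read 6.51, 6.27 and 6.26 on the MC arrays, 7.24, 6.92 and 6.80 after CAS, 6.92, 6.80 and 6.79 after SBM, 6.75, 6.81 and 7.07 after SDPP, and 6.53, 6.64 and 6.81 after YMW. Here too no treated array reached down to the MC, although YMW replicate 1 was close to MC replicate 1. The difference was 0.64 after CAS (SE 0.13) and 0.49 in the mean of the 4 sources (SE 0.10, limma adjusted p = 0.0389). All MC arrays lay below all 12 treated arrays for 3 of the 31 cluster genes, H4c6, H4c8 and H2ac8, the last of them under the background, and for 0 of the 12 variant genes, where this held for 0.739% of all genes.

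H4f16, an H4 gene on chromosome 6 outside the large clusters, read 9.21, 8.85 and 8.64 on the MC arrays and 9.13 to 9.82, with a median of 9.50, on the treated arrays. MC replicate 1 lay within that range and the other two MC arrays below it. Its difference was 0.66 after CAS, 0.71 after SBM and 0.61 after SDPP (SE 0.18), and 0.60 in the mean of the sources (SE 0.14, limma adjusted p = 0.0499). H4c4, named as the H4 gene with the highest reading, which between probe sets is no measure of the amount of mRNA, was 0.50 above the MC after CAS, 0.48 after SBM, 0.51 after SDPP and 0.43 after YMW (SE 0.15), under the fold in each. H4c14 and H4c3 passed after CAS alone, at 0.63 (SE 0.18) and 0.60 (SE 0.18). All 7 H4 genes had a positive difference with every source, with medians of 0.63, 0.49, 0.53 and 0.41 for CAS, SBM, SDPP and YMW. Of all 18820 genes, 9288, 8999, 9575 and 10320 had a positive difference. On MC replicate 1, H4c3, H4c4, H4c9 and H4c14 read 9.22, 11.37, 6.57 and 9.96, each inside the range of the treated arrays.

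Among the H1 genes, H1f5 read 9.12, 8.56 and 7.94 on the MC arrays and 8.81 to 9.59, with a median of 9.22, on the treated arrays. MC replicate 1 fell inside the treated range, and MC replicates 2 and 3 below it. The difference was 0.67 after CAS, and 0.79 after SBM and after SDPP (SE 0.21). From MC replicate 1 alone it was 0.09, 0.21 and 0.21. H1f1 read 9.37, 8.95 and 8.58 on the MC arrays and rose by 0.66 after SBM and 0.63 after SDPP (SE 0.19), while after YMW its arrays read 8.80, 9.23 and 9.27. H1f3 rose after SDPP, by 0.60 (SE 0.19).

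The H2A and H2B genes that passed as higher followed the same order of the MC arrays. H2ac4 read 9.52, 8.61 and 8.32 on the MC arrays, 10.11, 9.75 and 9.42 after CAS, 9.39, 9.37 and 9.62 after SBM, 9.44, 9.36 and 9.89 after SDPP, and 8.64, 9.28 and 9.31 after YMW. MC replicate 1 was above 8 of the 12 treated arrays, and MC replicates 2 and 3 were below all of them. The difference was 0.94 after CAS, 0.64 after SBM and 0.75 after SDPP (SE 0.27), the largest rise of any histone gene after CAS. Against MC replicate 1 alone, the sign turned for H2ac4 after SBM, to -0.06, and in the mean of the sources, to -0.06. H2bc3 read 8.82, 8.23 and 7.96 on the MC arrays and 8.43 to 9.35, with a median of 8.97, on the treated arrays, and its differences were 0.79, 0.67 and 0.70 (SE 0.20) after CAS, SBM and SDPP. H2bc14, the H2B gene with the highest reading, rose by 0.63 after CAS and 0.59 after SBM (SE 0.22), and H2bc8 by 0.59 after SDPP (SE 0.20). H2ac21, the H2A gene with the highest reading, was 0.34 above the MC after CAS, 0.37 after SBM, 0.32 after SDPP and 0.22 after YMW (SE 0.11), under the fold in each.

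**Figure D2:**
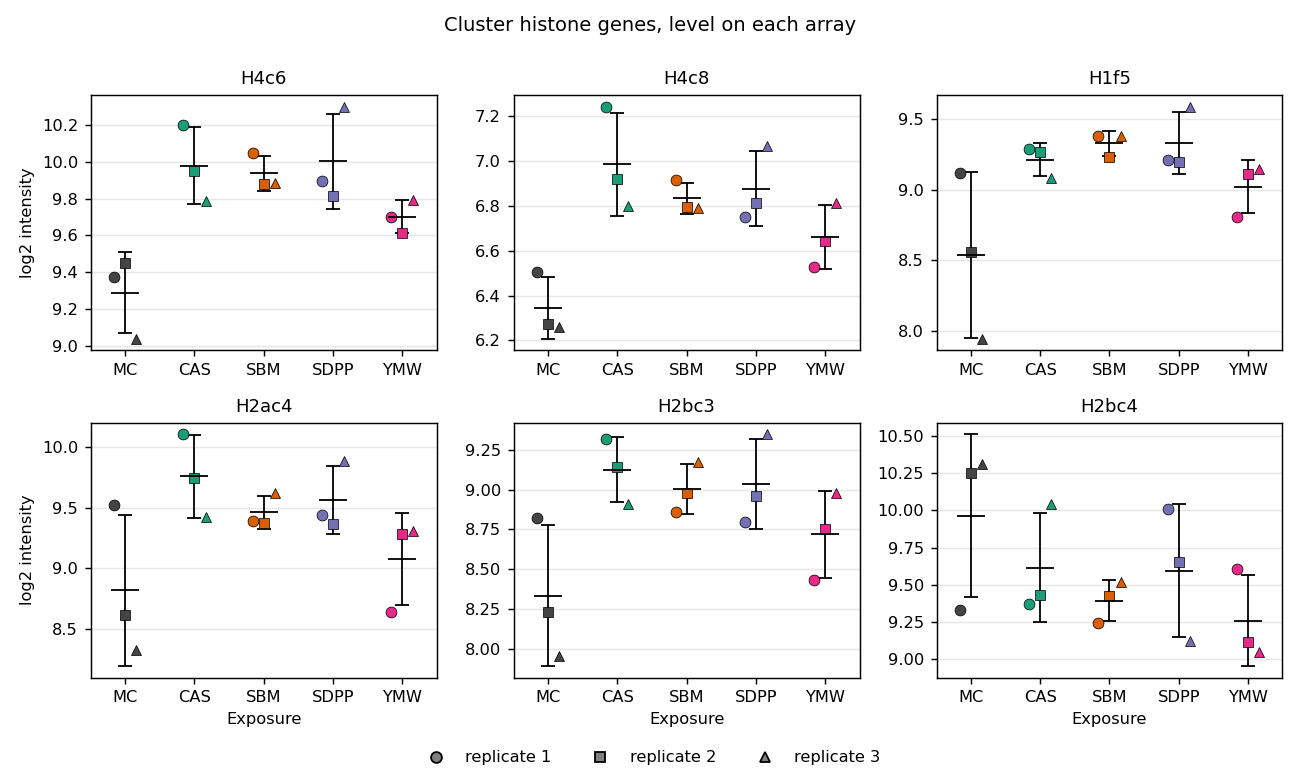
Log2 intensity of 6 cluster histone genes on each array, by exposure, with the group mean (horizontal bar) and SD (error bar) of 3 arrays. The MC arrays of H4c6 and H4c8 lie below all treated arrays, MC replicate 1 of H1f5, H2ac4 and H2bc3 lies among them, and H2bc4 runs the other way.

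H2bc4 was the exception among the cluster genes. It read 9.33, 10.25 and 10.31 on the MC arrays, 9.37, 9.43 and 10.04 after CAS, 9.24, 9.42 and 9.52 after SBM, 10.01, 9.66 and 9.12 after SDPP, and 9.61, 9.12 and 9.05 after YMW. MC replicates 2 and 3 were above all treated arrays, and MC replicate 1 was among the lower arrays. It fell after YMW, by 0.70 (SE 0.27), and the values after CAS, SBM and SDPP were -0.35, -0.57 and -0.37. The fall after YMW was lost without MC replicate 2 or 3 (-0.56 and -0.53) and without YMW replicate 2 or 3 (-0.63 and -0.60). It was also lost when the 2 probe sets of H2bc4 were averaged (-0.46), but the second had a mean of 2.90, under the background. Against MC replicate 1 alone the value was -0.07. The 5 treated arrays with the highest H2bc4 (CAS replicate 3, SBM replicate 3, SDPP replicates 1 and 2 and YMW replicate 1) were also the 5 with the highest mean of the enterocyte list.

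The same 5 arrays were the highest for H1f2, a linker histone gene of the chromosome 13 cluster. Of the 36 histone genes above background, H2bc4 and H1f2 shared all 5 of these arrays, H1f3 shared 4, H2bc22 and H3c4 shared 3, and 31 shared 2 or fewer. This order was looked for after the values of H2bc4 had been seen. On the MC arrays H1f2 read 8.53, 8.51 and 8.75, so there it did not follow the enterocyte list. Its differences from the MC were 0.07, -0.14, 0.26 and 0.04 (SE 0.20), none past the threshold. Both genes are known to give polyadenylated mRNA in cells that have left the cycle. Whether that bears on this order was not tested.

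H3 genes were measured poorly on their own probe sets. H3c4, the H3 gene with the highest reading, read 4.06 to 4.86 over the 15 arrays, H3c15 read 3.49 to 4.67, and H3c7 lay under the background. The median difference of the 3 genes was 0.10, 0.05, 0.12 and -0.06 for CAS, SBM, SDPP and YMW, and 0 passed. The 11 probe sets shared among H3 genes had a median difference of 0.47 after CAS, 0.42 after SBM, 0.48 after SDPP and 0.33 after YMW. A probe set of variant H3 genes is counted among them, with differences of 0.05, 0.05, 0.0008 and -0.05. Over the 40 shared probe sets of all families the medians were 0.39, 0.37, 0.37 and 0.21. All 40 had a positive difference after CAS, SBM and SDPP and 38 after YMW, but 0 passed the threshold in any comparison. Of the 18820 genes with a single symbol, 9288, 8999, 9575 and 10320 were positive after CAS, SBM, SDPP and YMW. MC replicate 1 lay inside the treated range on every shared H3 probe set, and below it on some shared H4 probe sets. Many of these probe sets read the same mRNAs, so they are not separate measurements.

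Of the variant genes, H2ax, whose product is phosphorylated at DNA breaks and whose mRNA is known to take both the stem-loop and the polyadenylated form, had the largest differences after CAS, SBM and SDPP, and H2az1 after YMW. H2ax read 7.59, 7.25 and 6.92 on the MC arrays and 7.48 to 8.01, with a median of 7.72, on the treated arrays. Its MC arrays ran in the order of the cluster genes, with replicate 1 inside the treated range. The difference was 0.55 after CAS (SE 0.15, limma adjusted p = 0.0959), 0.46 after SBM, 0.54 after SDPP and 0.30 after YMW, under the fold in each.

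H2az1, which codes for an H2A.Z, read 11.50, 10.96 and 10.67 on the MC arrays and 11.24 to 11.50 on the treated arrays. MC replicate 1 was thus near the top of the treated arrays and the other two below all of them. The difference was 0.38 after CAS, 0.38 after SBM, 0.36 after SDPP and 0.31 after YMW (SE 0.14). H2az2, the second H2A.Z gene, was 0.31 above the MC after CAS and 0.13 to 0.18 with the other sources (SE 0.11). H2aj, an H2A variant, was 0.07 to 0.23 above it (SE 0.12). Macroh2a1, which codes for a macroH2A, differed by 0.14 to 0.24 (SE 0.11), and Macroh2a2 by -0.01 to 0.21 (SE 0.24).

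The H3.3 genes moved little. H3f3a read 10.72, 10.72 and 10.61 on the MC arrays and 10.58 to 10.82 on the treated arrays, with differences from -0.01 to 0.06 (SE 0.06). H3f3b read 10.89, 10.54 and 10.52 on the MC arrays and 10.64 to 10.82 on the treated arrays, with differences from 0.01 to 0.11 (SE 0.08). H1f10, a linker histone gene that is read outside S phase too, differed by 0.08, -0.09, -0.22 and 0.29 (SE 0.15) for CAS, SBM, SDPP and YMW. H1f7 differed by -0.18 to 0.09 (SE 0.11), H1f8 by -0.03 to 0.10 (SE 0.15) and the pseudogene Macroh2a3 by 0.03 to 0.17 (SE 0.18).

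**Figure D3:**
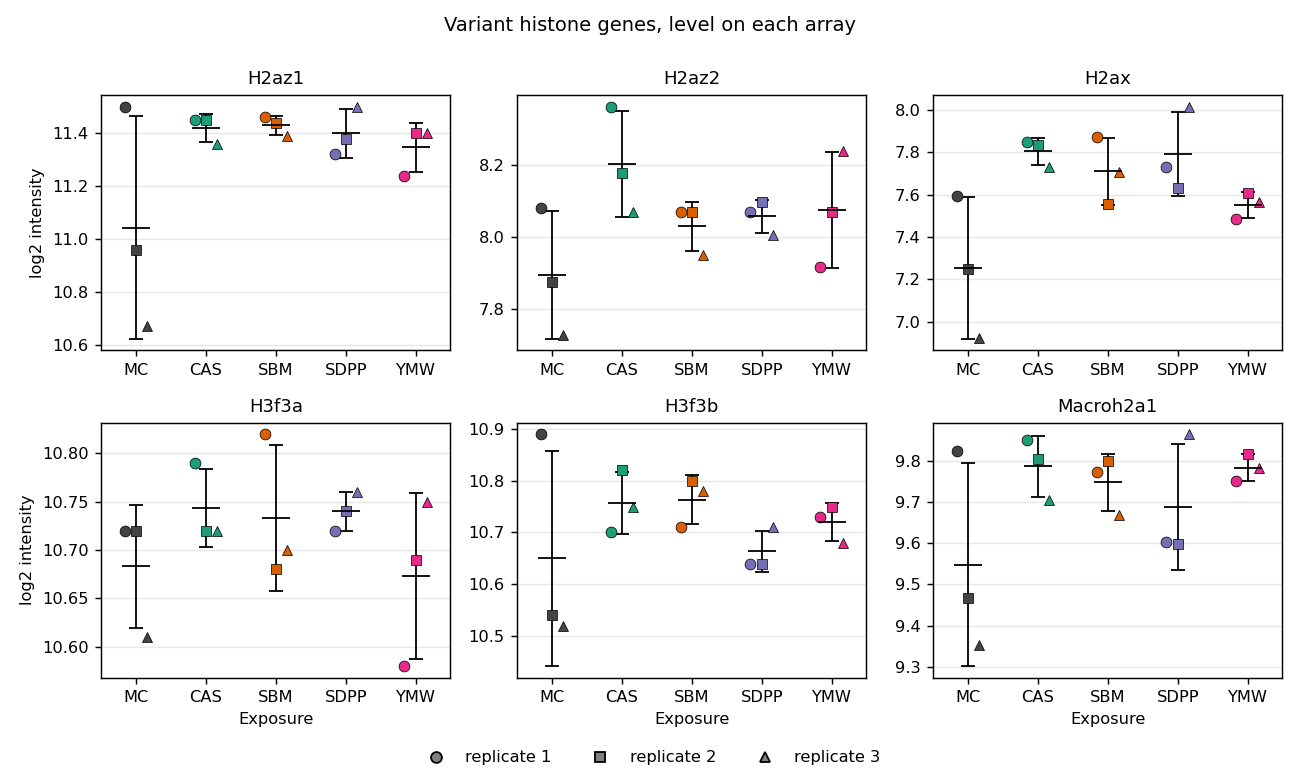
Log2 intensity of 6 variant histone genes on each array, by exposure, with the group mean (horizontal bar) and SD (error bar) of 3 arrays. MC replicates 2 and 3 of H2az1 and H2ax lie low and MC replicate 1 lies with the treated arrays, while each array of H3f3a lies between 10.58 and 10.82.

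Cluster genes read lower after YMW than after the other 3 sources. The differences in means use no MC array. Their SE and p-values do, since the model estimated the spread of each gene from all arrays, the MC included. No cluster gene passed the threshold in this comparison. No histone gene passed it there or in the same comparison for CAS, SBM or SDPP, where 0.0691%, 0.159%, 0.0266% and 0.0159% of all genes did. In limma 0 of the 43 genes had an adjusted p below 0.05 for any source, while at an unadjusted p below it there were 12 for YMW and 1 each for CAS, SBM and SDPP, where 5.5%, 5.36%, 4.83% and 2.42% of all genes were. For YMW, 29 of the 31 cluster genes had a negative difference, and so had all 26 above background. The median of those 26 was -0.23, beside 0.02 over all genes. Of all 18820 genes, 10710 had a positive difference. At an unadjusted p below 0.05 in limma, 10 cluster genes were lower and 1 (H2bc21, under the background) was higher, where 1.6% of all genes were lower and 3.9% higher. The largest differences were -0.52 for H2ac4 (SE 0.22, adjusted p = 0.899), -0.47 for H1f1 (SE 0.15, adjusted p = 0.758) and -0.43 for H3c15 (SE 0.20). Without YMW replicate 1 the difference of H2ac4 was -0.30 and that of H1f1 -0.32.

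The group means of H1f1 were 9.10 after YMW and 9.57 over the other 3 sources, and its highest YMW array, 9.27, was just under the lowest of the others, 9.30. Without YMW replicate 1, which read lowest for H1f1, H2ac4 and H2bc14, 2 cluster genes were lower at an unadjusted p below 0.05, 1 of them among the 10 (1.41% of all genes were lower), and 25 of the 26 genes above background were still negative, with a median of -0.18. Without YMW replicate 2 these values were 5 genes (1.73% of all), 24 and -0.19, and without YMW replicate 3 they were 9 genes (1.57%), 23 and -0.25. Without YMW replicate 2 or 3, 1 and 2 genes passed the study's threshold, all lower, against 0.0956% and 0.117% of all genes in either direction. Of the variant genes above background, 3 of 10 were positive after YMW, where 10710 of all 18820 genes were, and the median was -0.04. The largest variant difference was that of H1f10, at 0.37 (SE 0.12, limma adjusted p = 0.762), and 0.22 without YMW replicate 3.

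**Figure D4:**
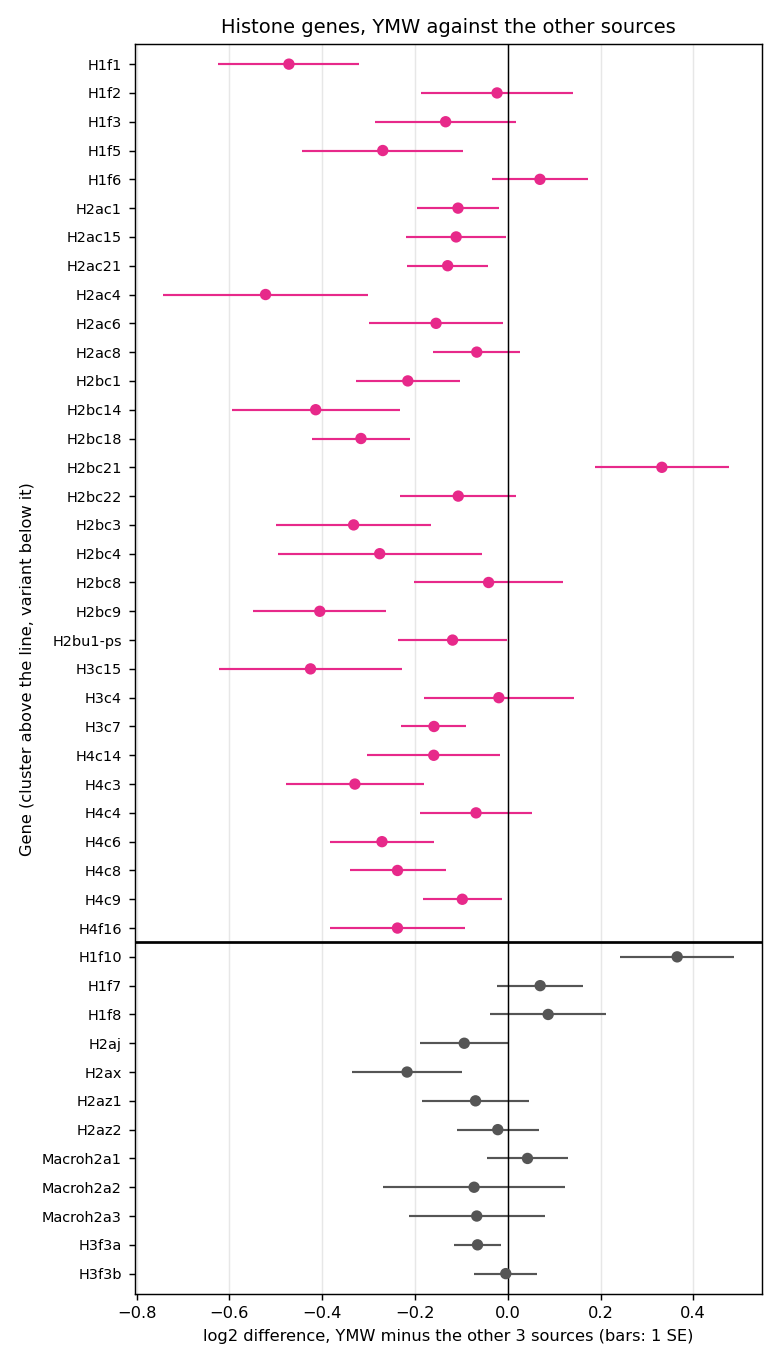
Log2 difference between YMW and the mean of the other 3 sources for each of the 43 histone genes, with bars of 1 SE, cluster genes above the line and variant genes below it. Of the 31 cluster points, 29 lie left of 0, and the largest shift to the right among the variants is that of H1f10, which reads near the background.

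S phase genes did not lie low after YMW. Of the 26 measured genes of a list of 30 replication genes, 22 had a positive difference between YMW and the other 3 sources, with a median of 0.08, where the 26 cluster histone genes had a median of -0.23. In the same comparison 10710 of all 18820 genes were positive. Tk1, the thymidine kinase of S phase, differed by 0.26 (SE 0.16) and Pcna, the sliding clamp of the replication fork, by -0.01 (SE 0.04). The median of the 16 G2 and mitosis genes was -0.03. Whether the histone and S phase lists differ was not tested.

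Against the MC, the S phase list had 1 gene past the threshold after CAS, 3 after SBM, 1 after SDPP and 2 after YMW, all higher, with medians of 0.21, 0.33, 0.20 and 0.34. Of all genes, 1.82%, 1.37%, 1.13% and 1.74% passed as higher. Tk1 rose after SBM, SDPP and YMW, by 0.66, 0.60 and 0.83 (SE 0.19), and Pole, the leading-strand polymerase, after CAS, SBM and YMW, by 0.61, 0.62 and 0.69 (SE 0.26). Of the 16 G2 and mitosis genes, 11, 10, 9 and 7 rose after CAS, SBM, SDPP and YMW, against the same shares of all genes. Bub1, a spindle checkpoint kinase, was higher by 0.93, 0.83, 0.72 and 0.98 (SE 0.30), and Cenpf and Bub1b were the next in size in the mean of the sources, at 0.86 (SE 0.25) and 0.80 (SE 0.20). On the MC arrays Pole read 7.88, 6.99 and 6.35 and Bub1 8.37, 7.16 and 6.58, with replicate 1 inside the treated range for both.

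Set against MC replicate 1 alone, most cluster genes were higher after CAS, SBM and SDPP but not after YMW, and most S phase and mitosis genes were lower after all 4 sources. Of the 12 treated arrays, 0 had a G2 and mitosis mean above that of MC replicate 1, and 2 had an S phase mean above it. The lower readings in those lists are thus set against an array that itself read high, and the cause was not tested. The mean of the cluster histone genes was 7.88 on MC replicate 1, 7.96 to 8.17 after CAS, 7.90 to 8.08 after SBM, 7.98 to 8.25 after SDPP and 7.76 to 7.89 after YMW. Of the 26 cluster genes, 22 were higher than on that array after CAS (84.6%), 18 after SBM (69.2%), 24 after SDPP (92.3%) and 8 after YMW (30.8%). Of the 26 S phase genes, 0, 7, 4 and 6 were higher, and of the 16 G2 and mitosis genes 2, 2, 0 and 2. Of the 10 variant genes, 5, 4, 3 and 2 were higher, with medians of -0.01 to -0.07. Of all genes above background, 39.4%, 34.4%, 41.8% and 42.7% were higher. This rests on 1 array and was chosen after its position had been seen, so it is a description of these arrays.

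**Figure D5:**
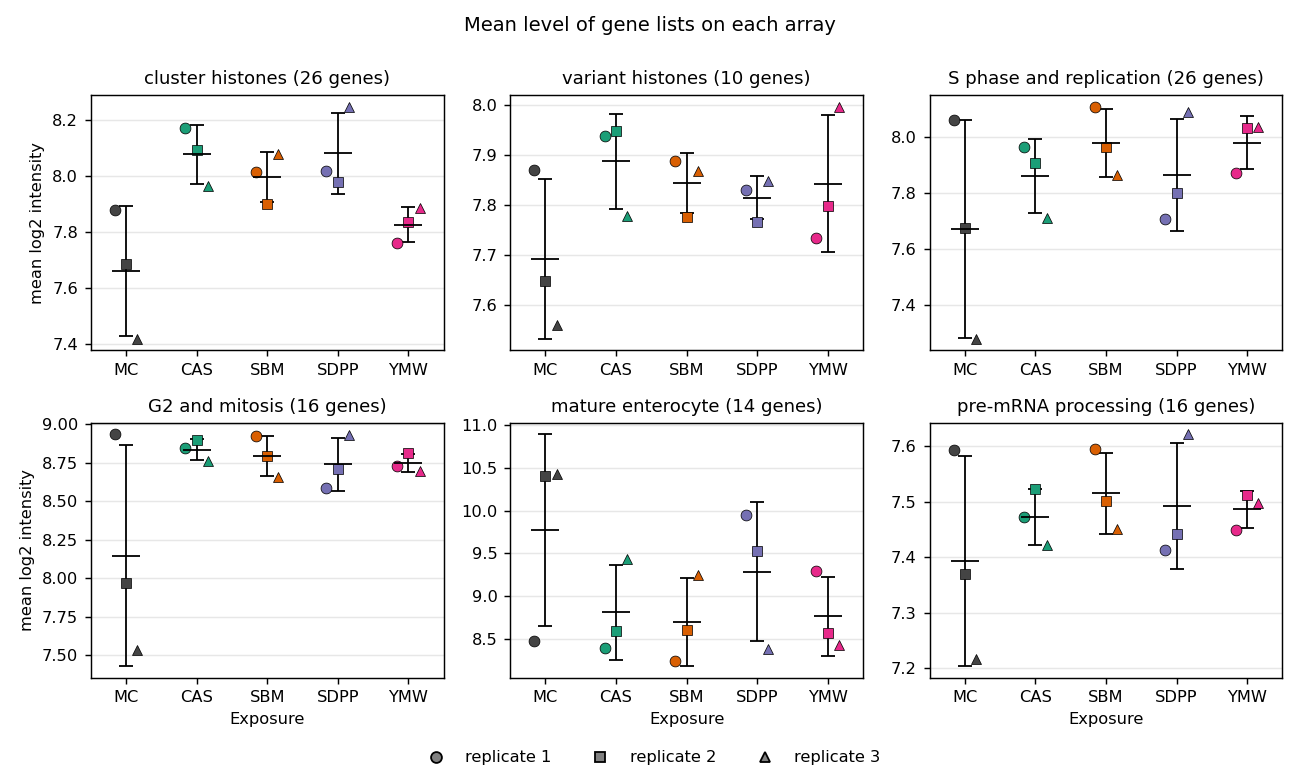
Mean log2 intensity of 6 gene lists on each array, by exposure, with the group mean (horizontal bar) and SD (error bar) of 3 arrays. MC replicate 1 lies with or above the treated arrays for the S phase and mitosis lists but below all CAS, SBM and SDPP arrays for the cluster histones, at 7.88.

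Of 16 genes for histone pre-mRNA processing, 0 passed with any source, and the medians were 0.07, 0.12, 0.08 and 0.12 for CAS, SBM, SDPP and YMW. The highest readings in this list were those of Cpsf3, the endonuclease that cuts histone pre-mRNA, with differences of 0.07 to 0.16 (SE 0.10), and of Upf1, a helicase in the decay of histone mRNA, with -0.08 to 0.01 (SE 0.07). Of 18 measured genes among 23 for histone chaperones and deposition, 1, 2, 1 and 1 rose, where 1.82%, 1.37%, 1.13% and 1.74% of all genes did. Cenpa, the centromeric H3 variant kept in this list, rose with all 4 sources, by 0.88, 0.71, 0.70 and 0.75 (SE 0.26). It read 7.73, 6.63 and 6.25 on the MC arrays, so MC replicate 1 lay among the treated arrays, at 7.35 to 7.87, and the other two below them. Asf1b, a chaperone of H3 and H4 in S phase, rose after SBM, by 0.59 (SE 0.18).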

How the data were processed

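RNA from 15 cultures was hybridised to mouse gene 1.1 ST arrays after whole-transcript labelling. The authors normalised the arrays by RMA and deposited the values as linear intensities, here 3.02 to 10739 per probe set. These were taken to log2. The labels give the protein as 4% (w/v), and the methods also give a mass per volume that differs from it. Of 35556 probe sets, 21218 had 1 gene symbol in the platform annotation, which can be old, 1881 had several and 12457 had none. The probe set with the highest mean stood for each of 18820 genes. All 43 member symbols are current in RefSeq. Members, gene lists, motifs and tests were chosen with earlier results of these data known.

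One limma model (version 3.58.1, R 4.3.3, prior variance with a trend on the mean) of 5 group means was fitted to all 15 arrays and 18820 genes, and p-values were adjusted by Benjamini-Hochberg over all genes. Genes were named by a rule: all variants, the cluster gene of each family with the highest reading, all genes past the threshold against the MC, and up to 3 of each pathway list. Marker lists served to describe the arrays. The fit was tested on simulated data. No arrays were identical. Arrays of the same replicate number did not vary together over all genes, which does not tell whether they came from 1 mouse. Alternatives were median centring, probe-set averaging, a background filter, other variance priors and thresholds, a replicate block, and leaving out each array. Using MC replicate 1 as the only control and adding the shared probe sets were chosen after seeing the data.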

Additional observations from a re-analysis of the deposited data

How the results depend on the processing

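The counts against the MC rest on few arrays. Leaving out 1 array at a time gave 3 to 17 histone genes past the threshold with CAS (9 with all arrays), 0 to 13 with SBM (7), 1 to 15 with SDPP (8), 0 to 7 with YMW (1) and 0 to 13 in the mean of the sources (5), and 0 to 2 for YMW against the other sources (0). The lowest counts against the MC came without MC replicate 3 and the highest without MC replicate 1. There 1.26% and 9.08% of all genes passed with CAS, 0.723% and 9.4% with SBM and 0.452% and 7.33% with SDPP. With YMW 1.13% and 9.53% did, and in the mean 0.739% and 8.68%. For YMW against the other sources, the 2 came without YMW replicate 3, where 0.117% of all genes passed. With MC replicate 1 as the only control, an arm of 1 array assumed to vary like the other groups and so no test of the condition, the counts were 1, 0, 1 and 0 for CAS, SBM, SDPP and YMW and 0 in the mean (0.834%, 0.611%, 0.744%, 0.494% and 0.436% of all genes), and H2ac4 reversed with SBM (-0.0601) and in the mean (-0.0571). With an adjusted p below 0.05 in place of the threshold they were 2, 0, 0, 0 and 3. Without a fold threshold they were 23, 17, 22 and 12, 24 in the mean, and 1, 1, 1 and 12 for CAS, SBM, SDPP and YMW against the other sources, where 16.5%, 18.2%, 12%, 19%, 23%, 5.36%, 4.83%, 2.42% and 5.5% of all genes passed. Centring each array on its median left 4 with SDPP and 3 in the mean, took 8 of the 30 named results under the fold, with H4c3 after CAS (0.56) and H2bc14 after SBM (0.57) besides those, and averaging the probe sets of a gene left 0 with YMW. A replicate block gave 9, 7, 8 and 1, and 5 in the mean, and changed no other call. Between arrays of the same number, deviations from the group means had a median correlation of -0.08, with 9 of 30 above 0.1. For arrays of other numbers the median was 0.06. These values do not tell which arrays share a mouse. The background filter and a single prior variance kept the direction and the side of the threshold for 30 of 30 named results, and fitting only the groups compared for 24 of 25. Leaving out MC replicate 3 took 26 of the 30 under the threshold, with the direction kept. The cause of these changes was not tested. Shares of all genes were not counted under centring, averaging or the replicate block, so those counts stand without them.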
